A study of Caenorhabditis elegans with 3 samples.

Results

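The genes described here are the 10 GATA transcription factor genes elt-1, elt-2, elt-3, egl-18, elt-6, elt-7, end-1, end-3, med-1 and med-2 of Caenorhabditis elegans, out of 19973 nuclear protein-coding genes in the annotation. They were chosen by name. A peak was counted for a gene when its summit, the position the peak file marks as its highest point, lay in the gene body or within 5000 bp of an annotated transcript start. The peaks come from chromatin immunoprecipitation followed by sequencing (ChIP-seq) of EGL-27, a chromatin protein related to the vertebrate MTA subunits of the NuRD complex that carries a GATA-type zinc finger itself. All animals were of strain OP177, with the unc-119(ed3) III mutation and the wgIs177 transgene, which adds EGL-27 with a GFP-FLAG tag at its C-terminus. They were whole larvae of the L4 stage, the last before adulthood, with both sexes pooled and the age given as unknown, and chromatin was broken by sonication. The data form 1 group of 3 libraries, labelled biological replicates 1, 2 and 4, with no second genotype, stage or treatment, so the comparisons are among the genes, between the libraries, and with all other genes by the same rule.

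GATA factors bind DNA through a zinc finger that reads the sequence WGATAR, in which W is A or T and R is A or G. In the worm embryo they act in relays: MED-1 and MED-2 switch on the short-lived factors END-1 and END-3, which specify the endoderm, and ELT-2 and ELT-7 then build and maintain the intestine. A parallel branch runs through ELT-1, which specifies the epidermis, ELT-3, which acts in differentiating epidermal cells, and EGL-18 and ELT-6, which keep seam cells, the stem-like cells of the epidermis, from fusing. The MED factors read a different sequence with the core AGTATAC.

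Peak sequences are shown for the sites that the results turn on, on build ce11 (WBcel235), plus strand, 100 bp to each side of the summit of a peak of the pooled list. In the following 4 sequences capitals mark every GATA hexamer, meaning AGATAA with its variant AGATAG, the form TGATAA with its variant TGATAG, each searched on either strand. The elt-2 sequence (chrX:10480665-10480865, 475 bp upstream of the start) belongs to the only stretch of any of the 10 genes where peaks of all 3 libraries joined. The elt-1 sequence (chrIV:9615722-9615922, in an intron) and the elt-3 sequence (chrX:13937550-13937750, in an intron) hold the most hexamers of the pooled peaks of the 10 genes, 4 each. The egl-18 sequence (chrIV:1898051-1898251, 4171 bp upstream of the start) has the highest pooled signal among peaks whose nearest protein-coding start is that of a GATA factor gene, and holds no hexamer.

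elt-2: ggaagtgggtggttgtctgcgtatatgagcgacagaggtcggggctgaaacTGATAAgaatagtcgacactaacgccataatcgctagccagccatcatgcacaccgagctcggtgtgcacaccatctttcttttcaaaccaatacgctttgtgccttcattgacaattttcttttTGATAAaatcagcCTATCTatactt
elt-1: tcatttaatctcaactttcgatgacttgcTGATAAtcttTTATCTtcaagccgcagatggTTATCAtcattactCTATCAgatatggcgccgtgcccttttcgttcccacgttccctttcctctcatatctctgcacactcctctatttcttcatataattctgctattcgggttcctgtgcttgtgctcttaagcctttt
elt-3: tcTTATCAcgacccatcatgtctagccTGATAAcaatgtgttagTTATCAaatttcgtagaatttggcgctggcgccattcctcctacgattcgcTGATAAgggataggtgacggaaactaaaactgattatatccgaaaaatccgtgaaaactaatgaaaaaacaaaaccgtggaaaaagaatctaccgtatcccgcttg
egl-18: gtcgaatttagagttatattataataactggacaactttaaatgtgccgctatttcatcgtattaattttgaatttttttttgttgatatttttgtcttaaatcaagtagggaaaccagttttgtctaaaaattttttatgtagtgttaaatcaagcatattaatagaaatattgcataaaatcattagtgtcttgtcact

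The next 2 sequences surround the highest and second highest pooled peaks in the med-2 window, at chrIII:6887651-6887851 and chrIII:6888459-6888659. Here capitals mark the bases that belong to annotated tRNA genes, both on the minus strand inside introns of the neighbouring gene brd-1. Neither sequence holds a GATA hexamer.

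med-2 peak at 3248 bp: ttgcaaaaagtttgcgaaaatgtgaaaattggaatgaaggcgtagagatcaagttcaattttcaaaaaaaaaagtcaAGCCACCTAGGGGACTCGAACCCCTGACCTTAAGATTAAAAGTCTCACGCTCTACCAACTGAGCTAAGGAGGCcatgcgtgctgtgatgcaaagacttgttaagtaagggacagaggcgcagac
med-2 peak at 4056 bp: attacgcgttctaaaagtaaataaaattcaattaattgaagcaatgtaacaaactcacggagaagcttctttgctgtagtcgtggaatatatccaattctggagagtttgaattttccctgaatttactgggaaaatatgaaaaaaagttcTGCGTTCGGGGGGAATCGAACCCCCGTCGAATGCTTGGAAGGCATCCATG

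The reproducible list, the strictest, holds 102 peaks. None of the 10 GATA factor genes had a peak in it, against 1.10% of nuclear protein-coding genes. All 10 had a peak of the pooled list, which stops at 30000 peaks and by its deposited name holds background besides peaks. So did 94.0% of nuclear protein-coding genes, so having a pooled peak does not set these genes apart. In the lists made from each library alone, 6 of the 10 had a peak in replicate 1 (62.5% of nuclear protein-coding genes), 6 in replicate 2 (73.9%) and 7 in replicate 4 (47.2%). With windows of 5000 bp these counts lie on both sides of the share over all genes. With 2000 or 1000 bp plus the gene body, the count of each library was below its share. In whole larvae, a site bound in few cells cannot be told apart from a weakly bound site in many, and peaks carry no information on whether a gene is expressed.

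**Figure D1:**
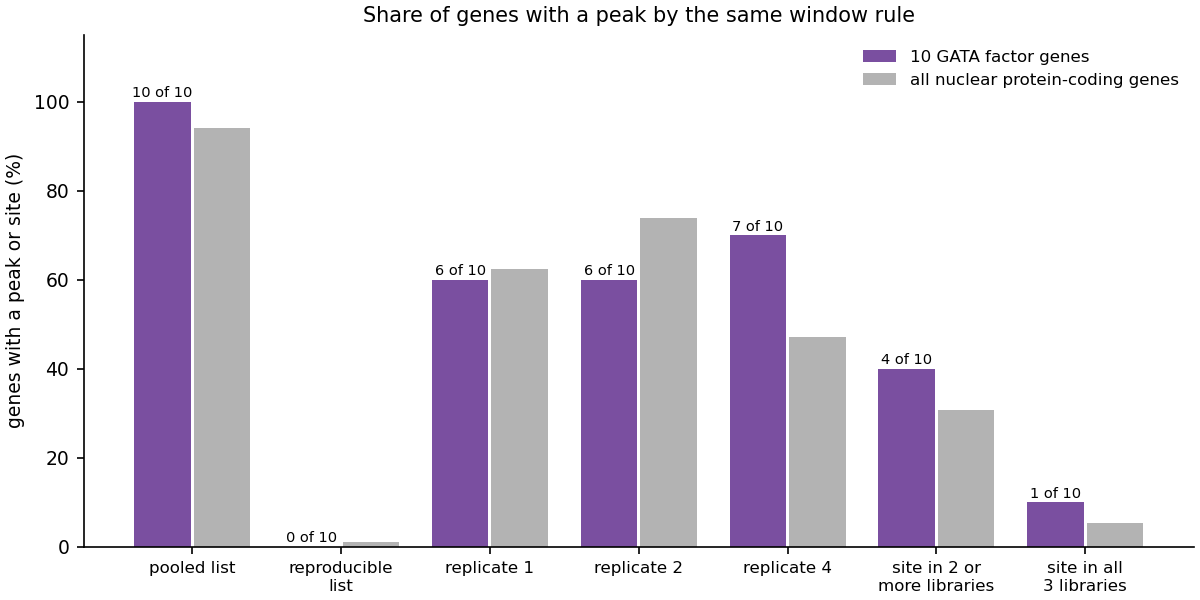
Share of genes (%) with a peak or a shared site in each deposited list, for the 10 GATA factor genes (purple) and for all 19973 nuclear protein-coding genes (grey), with the number of GATA factor genes above each bar. The purple bars stand at 10, 0, 6, 6, 7, 4 and 1 of 10 genes, and the grey bars at 94.0, 1.10, 62.5, 73.9, 47.2, 30.6 and 5.28%.

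Which library gave the peaks differed from gene to gene. Peaks of all 3 libraries lay somewhere in the windows of elt-2, egl-18 and med-2, 3 of 10 genes, against 27.5% of nuclear protein-coding genes. The windows of elt-3, elt-6 and med-1 held peaks of 2 libraries (3 of 10, against 37.6%). The replicate 1 peak of elt-6 lay in an egl-18 intron and was counted for egl-18 too. The windows of elt-1, elt-7, end-1 and end-3 held peaks of 1 library (4 of 10, against 25.8%). That library was replicate 2 for end-1 and replicate 4 for the other 3. No window of the 10 lacked library peaks, against 9.04% of nuclear protein-coding genes. A site in at least 2 libraries, meaning library peaks that overlapped by 1 bp or more, was present at elt-2, egl-18, med-1 and med-2 (4 of 10, against 30.6% of nuclear protein-coding genes), and a site in all 3 was present at elt-2 alone (1 of 10, against 5.28%). With only the 1000 highest peaks of each library none of the 10 had a site in 2 or more libraries, against 2.50% of nuclear protein-coding genes.

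The windows of the 10 genes covered 116 kb together and held 34 distinct pooled peaks. That is 2.93 per 10 kb (exact Poisson 95% interval 2.03 to 4.09, covering counting error only), against 2.99 over the nuclear genome, where 34.7 peaks would fall in the same length. Library lists gave 1.03 per 10 kb in replicate 1 (0.964 over the genome), 1.21 in replicate 2 (1.36) and 0.862 in replicate 4 (0.662), from 12, 14 and 10 peaks. In the reproducible list 0.118 peaks would fall in this length at the genome's density, so the 0 found there could not have shown a depletion.

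The 34 pooled peaks were of ordinary height for their list. Their signal, the authors' deposited value per peak on a scale not given in the sources used here, ran from 3.98 to 13.3 with a median of 5.25, and the whole list also had a median of 5.25. The lowest signal in the reproducible list was 18.7, and 402 pooled peaks stood above the highest peak of a GATA factor gene. The pooled peaks at or above 18.7 number 102, as many as the reproducible list holds. The absence of these genes from that list and their signals below 18.7 are therefore not separate results. Of the 34 peaks, 13 (38.2%) overlapped no library's peak, against 35.7% of the pooled list. Another 16 overlapped peaks of 1 library (47.1%, against 49.5%), 3 of 2 libraries (8.82%, against 12.6%) and 2 of all 3 libraries (5.88%, against 2.15%). Both of the last lay upstream of elt-2, and they did not overlap the same replicate 1 peak.

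**Figure D2:**
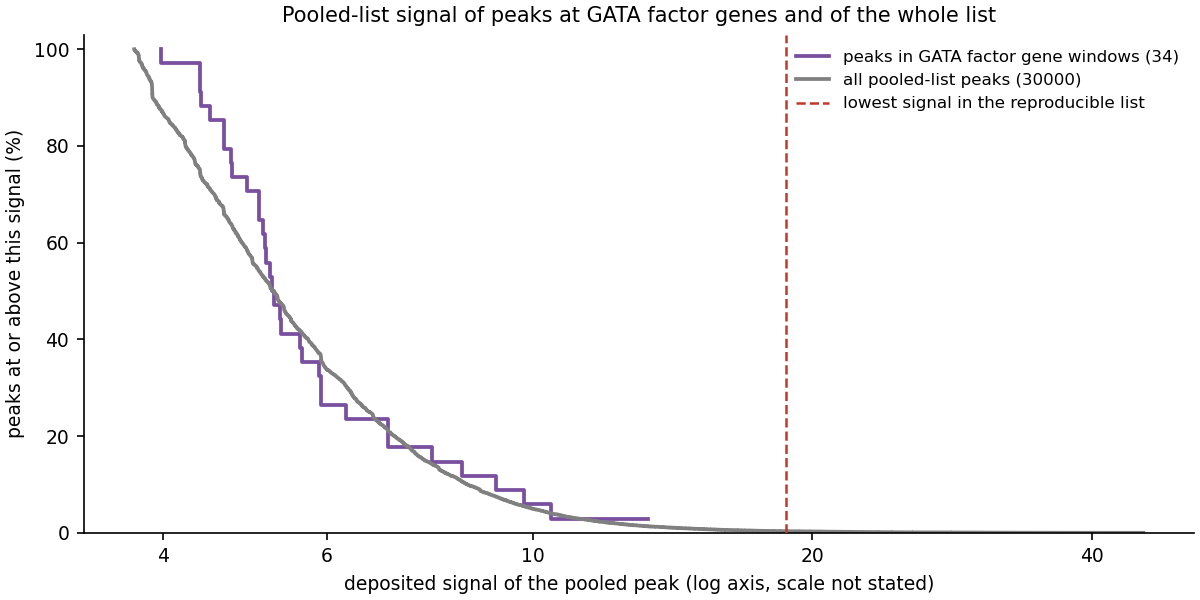
Percent of peaks at or above each deposited signal (log axis) for the 34 pooled peaks in windows of GATA factor genes (purple) and for all 30000 pooled peaks (grey). The curves cross near the shared median of 5.25, and the purple curve ends at 13.3, left of the dashed line at 18.7, the lowest signal in the reproducible list.

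Among the genes that specify endoderm, med-2 had the highest pooled peak of all 10. Its 13.3 signal ranked 403 of 30000 peaks, and by highest pooled peak med-2 ranked 847 of 19973 genes. The peak lay 3248 bp downstream of the med-2 start, in an intron of brd-1, the worm BRCA1-associated RING domain gene. It overlapped the tRNA gene WBGene00023099 (chrIII:6887728-6887800, minus strand), with the summit 49 bp from the start of the tRNA gene. In the libraries this site had a signal of 2.21 in replicate 1 (rank 8350 of 9666 peaks) and 7.89 in replicate 2 (rank 512 of 13686), and none in replicate 4. It was thus near the top of the list in replicate 2 and near the bottom in replicate 1. Signals come from lists of different lengths, so ranks and not levels are set side by side.

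The pooled peak of the second med-2 site overlapped another tRNA gene, WBGene00023098 (chrIII:6888610-6888681, minus strand). Its summit lay 122 bp from that gene's start and 4056 bp from the start of med-2. The pooled signal was 9.77 (rank 1659). Replicate 1 reached 3.20 there (rank 3092) and replicate 4 reached 5.33 (rank 326 of 6636), while replicate 2 had no peak. The 4 library peaks joined there, 2 from each of these libraries, had summits spread over 581 bp and no stretch common to all 4. The replicate 1 peak beside the pooled summit had 2.35 (rank 7668). It shared chrIII:6888493-6888789 with the replicate 4 peak of rank 326, so the 2 libraries did overlap at this site. The 2 med-2 sites came from different pairs of libraries. The window of med-2 holds 3 tRNA genes and those of the other 9 genes hold none. In the pooled list 0.837% of peaks had a summit within 200 bp of the start of a tRNA gene, with a median signal of 7.54, against 5.24 for the rest. This setting was added after seeing the data. With such peaks left out, the highest signal among the 10 genes was 10.5, 6 of 10 had a peak in replicate 4 (46.8% of nuclear protein-coding genes), and 3 of 10 had a site in 2 or more libraries (29.9%). Many tRNA genes have near-identical copies elsewhere in the genome, and how reads were placed among them is not stated.

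Nearer to med-2 itself were weaker pooled peaks. A peak in its coding exon, 158 bp from the start, had a signal of 5.15 and overlapped no library's peak. A peak 1614 bp downstream had 4.38 and a partner in replicate 2, and one 2930 bp upstream, in the 5' UTR of K04C2.7, had 6.98 and a partner in replicate 2.

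The sister gene med-1 had 4 pooled peaks, the highest 5.64 (rank 12400), 2250 bp downstream of the start and closest to the start of tsct-1. Its partner in replicate 1 was the highest med-1 peak of any library, with 4.70 (rank 660). Replicates 1 and 4 shared a site with summits 4947 bp and 4789 bp upstream of med-1, at chrX:12425432-12426039, with signals of 2.03 (rank 9551) and 2.78 (rank 3238). That site lay at the start of T24D3.2 and reached past the edge of the med-1 window. No pooled peak with its summit in the window overlapped it. Replicate 2 had no peak in the med-1 window. The 2 genes are nearly the same, with 512 of 525 bp equal (97.5%). Of the 36-base words in each gene 49.8% occur once in the genome, so reads inside them can be hard to place. The windows around them were 96.9% (med-1) and 95.5% (med-2) unique by this measure.

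The END genes had 1 pooled peak and 1 library peak each, as did elt-7. end-1 had 1 pooled peak (8.39, rank 3197), 2740 bp downstream of the start in a coding exon of ric-7. It was matched by replicate 2 alone (5.72, rank 2144). end-3 had 1 pooled peak (5.34, rank 14284), 2864 bp upstream and 15 bp from the start of ddx-17, with no partner in any library. The end-3 peak of replicate 4 lay elsewhere, 4348 bp upstream in an intron of ddx-17 (2.20, rank 5460). Neither gene had a peak within 2000 bp of its own start.

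Among the intestine factors, elt-2, the main regulator of intestinal genes, carried the site common to all 3 libraries. It spanned chrX:10480103-10480967, just upstream of the gene. Replicate 1 had a signal of 2.76 there (rank 5038), replicate 2 had 3.24 (rank 12751) and replicate 4 had 3.17 (rank 2084), the higher of its 2 peaks. All of these are unremarkable within their lists, and replicate 2's is close to the end of its list. The summits of the 4 library peaks were spread over 415 bp. Replicate 4 gave 2 of these peaks. With only its higher peak, the 3 libraries shared chrX:10480508-10480652. The stretch common to all 4 peaks was shorter, 35 bp, and is printed here with 1 hexamer in capitals.

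elt-2 common stretch (chrX:10480508-10480542): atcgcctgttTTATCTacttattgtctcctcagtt

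When summits had to lie within 100 bp of each other, or peaks had to overlap reciprocally by 50% of their length, no GATA factor gene had a site in all 3 libraries, against 1.57% and 3.14% of nuclear protein-coding genes. The pooled peaks at the site stood 475 bp upstream (6.99, rank 6290, the sequence with 3 hexamers above) and 1180 bp upstream (4.38, rank 22234). The peak at 1180 bp did not overlap the replicate 1 peak of the site. It overlapped a separate replicate 1 peak, 1497 bp upstream. Neither pooled peak covered the 35 bp stretch. The pooled peak at 475 bp, chrX:10480550-10480979, did overlap the longer stretch that the 3 libraries shared with only the higher replicate 4 peak.

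Other peaks of elt-2 were matched in fewer libraries. The highest pooled peak in its window, at 9.13 (rank 2247), lay 3496 bp upstream in the 3' UTR of C39B10.7 and had a partner in replicate 2 (4.88, rank 3911). The best-ranked library peak of any of the 10 genes was in replicate 1, 1497 bp upstream of elt-2, with 6.17 (rank 154 of 9666). Its nearest pooled counterpart, 1393 bp upstream, had 5.12 (rank 15903), and the other libraries had no peak overlapping that replicate 1 peak.

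For elt-7, which acts beside elt-2 in the intestine, the only pooled peak was the lowest among the highest pooled peaks of the 10 genes. It had 4.65 (rank 19798), lay 3353 bp upstream, and had the start of C18G1.8 nearer to it. The elt-7 peak of replicate 4 (2.48, rank 4420) lay 3289 bp downstream of the nearest elt-7 start, with no pooled peak beside it. Replicates 1 and 2 had none.

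In the epidermal group, elt-1 had 4 pooled peaks, led by one 1952 bp upstream (7.79, rank 4275) that overlapped a peak of replicate 4 (2.49, rank 4296). The pooled peak with 4 hexamers, 168 bp upstream of an internal elt-1 start, had 4.39 (rank 22113) and no partner in any library. elt-3 had 5 pooled peaks, of which the highest lay at its start, 12 bp upstream (6.30, rank 9091), and overlapped a replicate 2 peak of 3.46 (rank 10959). The elt-3 intron peak with 4 hexamers, 1093 bp upstream of an internal start, had 5.26 (rank 14983). Its partner in replicate 2 had 4.12 (rank 6722). The elt-3 peaks of replicate 1 fell downstream of the gene, the higher with 3.06 (rank 3603), and replicate 4 had none, so no elt-3 site was shared between libraries.

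The seam cell genes egl-18 and elt-6 are neighbours on chromosome IV, and 2 pooled peaks inside introns of egl-18 were counted for both. The strongest egl-18 peak, with 10.5 (rank 1204), lay 4171 bp upstream of the gene. Replicate 2 had a peak with the same summit (6.20, rank 1437), replicate 4 had one overlapping it with its summit 257 bp away (2.36, rank 4870), and replicate 1 had none. Near the other end of the gene, a peak of replicate 1 (3.89, rank 1480) overlapped a pooled peak of 4.92 (rank 17592). That replicate 1 peak was counted for elt-6 too, 3425 bp upstream of the elt-6 start, and elt-6 had no other peak of replicate 1. A further pooled peak, 1115 bp upstream of egl-18 (5.91, rank 10937), overlapped a replicate 2 peak (3.89, rank 7945) and had 6 matches to GAGAGA, overlaps counted, around its summit.

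At elt-6 the pooled peaks had signals of 4.92, 5.35 and 5.07, and the highest (rank 14262) lay 1634 bp upstream of the elt-6 start. None of these 3 was matched by replicate 2 or 4. The highest elt-6 peak of replicate 2 (6.12, rank 1512) lay 4691 bp downstream of the start, nearer to denn-4 and by the edge of the window. No pooled peak with its summit in the elt-6 window overlapped it.

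**Figure D3:**
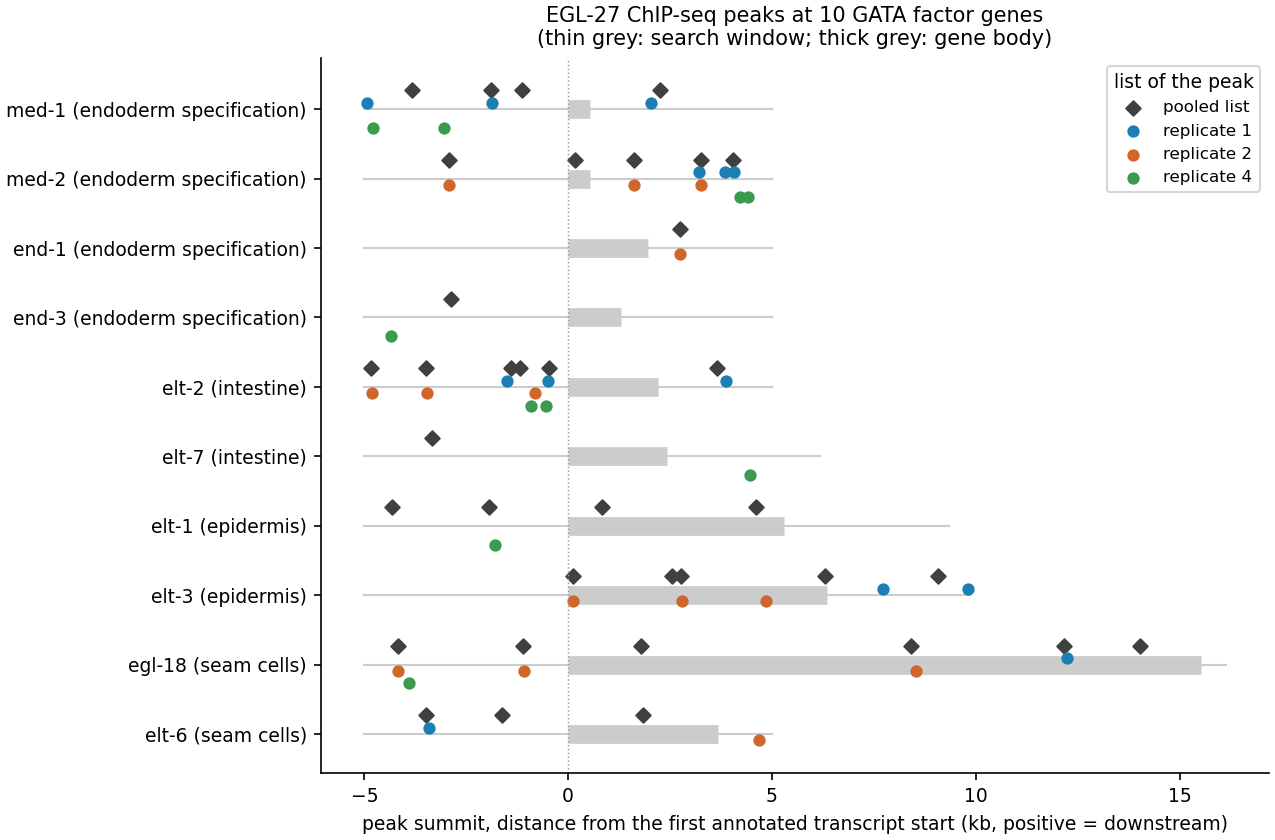
Summits of pooled peaks (diamonds) and library peaks (circles, coloured by replicate) along the windows of the 10 genes, as distance in kb from the first annotated transcript start of each gene. The elt-2 row has circles of all 3 colours within 1 kb upstream of the start, and the med-2 row has 6 of its 8 library peaks 3 to 5 kb downstream, where the tRNA genes of brd-1 lie.

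Ordered by their highest pooled peak, the genes were med-2 (13.3), egl-18 (10.5), elt-2 (9.13), end-1 (8.39), elt-1 (7.79), elt-3 (6.30), med-1 (5.64), elt-6 (5.35), end-3 (5.34) and elt-7 (4.65). The pooled list gives 1 value per peak and no spread over libraries, so whether neighbours in this order differ was not tested. The median over the 10 genes was 7.04, against 6.98 over nuclear protein-coding genes with a pooled peak, and 5 of the 10 stood above that value. med-2 was in the highest 4.24% of genes, egl-18 in the highest 11.6%, elt-2 in the highest 20.5% and elt-7 in the highest 84.9%. The med-2 value came from the peak over a tRNA gene in a brd-1 intron, 3248 bp from the med-2 start. The highest med-2 pooled peak not within 200 bp of a tRNA gene start had 6.98. The gene ranks and the median of 7.04 were not recomputed without the peaks near tRNA genes. A longer window gives more chances of a high peak. The windows of the 10 genes ran from 10 kb to 21.1 kb (egl-18), and their median was the same as over all genes.

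**Figure D4:**
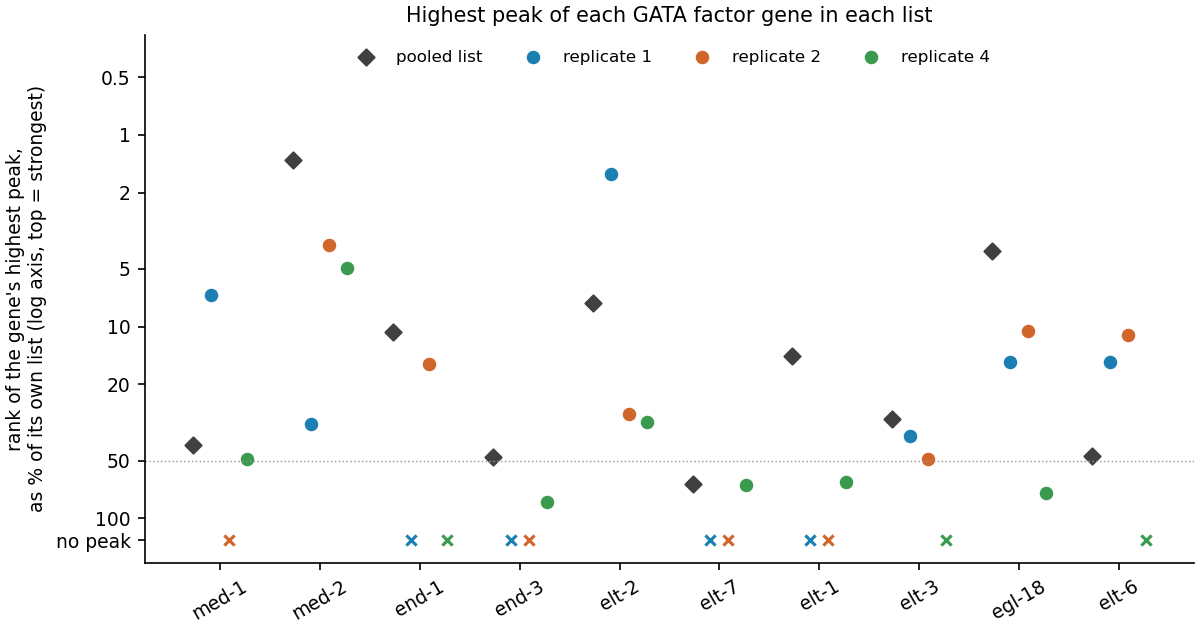
Rank of each gene's highest peak in the pooled list and in each library, as percent of that list (log axis, strongest at the top, dotted line at 50%), with a cross where a library had no peak. The only points in the highest 2% are the pooled med-2 peak at 1.34% and the elt-2 peak of replicate 1 at 1.59%, and 11 crosses mark the missing library peaks.

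The pooled peaks of these genes were not placed mainly at their starts. Of the 34, 5 lay within 500 bp of a start of their own gene, at elt-1, elt-2, elt-3 and med-2, and 24 had a GATA factor gene as the nearest protein-coding start. Neither count was computed for the windows of other genes, so whether this placement is particular to the 10 genes was not tested. Between protein-coding genes lay 15 of the 34 (44.1%, against 37.8% of the pooled list), in introns 11 (32.4%, against 32.3%) and in coding exons 4 (11.8%, against 23.8%). A 5' UTR and a 3' UTR held 2 each (5.88%, against 2.03% and 4.05%). With windows of 1000 bp plus the gene body, 6 of the 10 genes had a pooled peak, against 65.5% of nuclear protein-coding genes.

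GATA hexamers were somewhat denser in the windows of these genes than in the genome, from 1.88 per kb (elt-7) to 3.80 per kb (elt-2), against 2.38 per kb over the nuclear genome, with elt-7 the only gene below it. Within 100 bp of the summit, 14 of the 34 pooled peaks had a hexamer (41.2%, exact binomial 95% interval 24.6 to 59.3%), against 37.0% of all pooled peaks. The interval covers counting error only and takes peaks as independent, though many share a window, so the difference was not tested. Within 50 bp the shares were 32.4% and 20.9%. TGATAA alone was present at 8 (23.5%, against 18.8%). At least 3 hexamers were present at 4 peaks (11.8%, against 2.24% of the pooled list), of which 2 were neighbouring peaks of elt-3, 1 was at elt-1 and 1 at elt-2. Both peaks with 4 hexamers were among them (5.88%, against 0.533%). These had signals from 3.98 to 6.99, so hexamer-rich peaks were not the highest ones. The MED core AGTATAC was at none of the 34 (1.18% of the pooled list). GAGAGA was at 4 (11.8%, against 14.2%) and CACGTG at 1 (2.94%, against 3.90%). The median GC content within 100 bp of the summit was 37.6%, against 35.8% for the pooled list. A match is a description of the letters and shows no binding.

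Lists of related genes were counted by the same rule, to be read against the shares over all genes of 30.6% for a site in 2 or more libraries and 5.28% for a site in all 3. Of 3 further genes with GATA-type zinc fingers, elt-4, egl-27 and lin-40, all had a pooled peak and a site in at least 2 libraries, and egl-27 alone had reproducible peaks, 4 of them, with ranks from 6 to 62 among the 102. The animals carry additional egl-27 sequence in the transgene, so signal at egl-27 and copy number cannot be told apart. Of 11 genes upstream in endoderm specification, such as skn-1 and pop-1, all had a pooled peak, none had a reproducible peak, 5 had a site in 2 or more libraries and 1 a site in all 3. That gene was wrm-1, which encodes a beta-catenin, with a highest pooled signal of 15.5, above that of every GATA factor gene here, and overlapping peaks of ranks 776, 1091 and 1469 in replicates 1, 2 and 4. Of 20 intestine genes, all had a pooled peak, 0 a reproducible one, 10 a site in 2 or more libraries and 3 a site in all 3. These were asp-1, an aspartyl protease gene (highest pooled signal 9.74), nhx-2, a sodium-proton exchanger gene (8.44), and dlg-1, a cell junction gene (8.43). Of 22 epidermis and seam cell genes 19 had a pooled peak, 0 a reproducible one, 4 a site in 2 or more libraries and 0 a site in all 3. The median highest pooled signal was 9.06 for the upstream endoderm list, 7.27 for the intestine list and 6.41 for the epidermis and seam cell list, against 7.04 for the 10 GATA factor genes, and no difference between lists was tested.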

How the data were processed

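Peak lists on build ce11 were used as deposited; lists on ce10 were not used here. Per the deposited README texts, each library's list was made from its alignment and a control, the pooled list from the 3 alignments and that control, and the reproducible list from the pooled and single-library lists. The aligner, peak caller and thresholds are, in the sources used here, not given. The signal of each peak is the authors' deposited value and ranks peaks within 1 list only. The authors' deposited q column was treated as a score, since the pooled list has values below 0 in it, and served in 1 alternative ranking. No read counts were used, so depth is unknown and intervals cover counting error only. A possible control experiment was not analysed here. Libraries shared 2 to 11 identical summits and were counted as 3 samples.

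Genes came from Ensembl release 115 on WBcel235, the assembly of ce11, and sequence from the RefSeq genome of that assembly. Peaks were assigned by summit to windows of gene body plus 5000 bp around each start, so a peak can count for several genes, and library peaks overlapping by 1 bp were joined into a site. Motif searches covered both strands and 100 bp to each side of a summit, and overlapping matches were counted. For each gene the highest pooled peak, sites shared by libraries and best-ranked library peaks are described. No test between groups was possible, and shares stand beside the same share over all nuclear protein-coding genes. The genes and the lists of related genes were chosen with earlier results of these data known. Python 3.11.15, numpy 2.4.6 and pandas 2.3.3 were used, and the assignment was tested on simulated data. Alternatives changed the window, assignment, list depth, ranking, overlap rule and motif window, or left out a replicate.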

Additional observations from a re-analysis of the deposited data

How the results depend on the processing

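The reproducible count was 0 in every alternative run for it. In this paragraph the share of all nuclear protein-coding genes under the same setting follows each count of the 10 genes in parentheses. At 2000 bp plus gene body, 3, 4 and 2 had a peak in replicates 1, 2 and 4 (39.9, 49.9 and 28.7%). A site in 2 or more libraries was present at 1 (17.4%). The counts for replicate 4 and for such sites thus moved to below the share over all genes. At 1000 bp, 6 had a pooled peak (65.5%), 2, 3 and 1 a peak in replicates 1, 2 and 4 (31.3, 39.8 and 22.4%), and 1 a site in 2 or more libraries (13.3%). At 2000 and 1000 bp, 1 had a site in all 3 libraries (2.79 and 2.01%). At 10000 bp, 4 had a site in 2 or more libraries (48.2%), also below the share over all genes. With each peak given to its nearest start, 3 had a peak in replicate 4 (23.4%) and 2 a site in 2 or more libraries (13.9%). With the 5000 highest signals, 5 had a pooled peak (39.2%), 6, 5 and 6 a peak in replicates 1, 2 and 4 (40.8, 39.4 and 38.5%), 2 a site in 2 or more libraries (13.8%) and 0 a site in all 3 (2.22%), and pooled density was 0.517 per 10 kb, against 0.499 over the genome. With the 1000 highest by signal, 1 had a pooled peak (9.66%), 2, 1 and 1 a peak in replicates 1, 2 and 4 (10.3, 9.63 and 9.58%), and 0 a site in 2 or more (2.50%) or in all 3 (0.526%). By the q column the counts were equal (9.71, 10.3, 9.65, 13.2, 2.65 and 0.546%). With summits within 100 bp, 2 had a site in 2 or more libraries (15.8%) and 0 in all 3 (1.57%), and with reciprocal overlap of 50%, 0 in all 3 (3.14%). A site in both other libraries was present at 2 genes without replicate 1 (13.99%), 3 without replicate 2 (11.1%) and 2 without replicate 4 (18.7%). The share of pooled peaks with a hexamer was 32.4% within 50 bp of the summit, against 20.9% of the pooled list, and 64.7% within 200 bp, against 59.6%. For peaks in windows of 2000 bp it was 55%, against 37.0% of the whole pooled list, which was not limited to such windows. No difference between these shares was tested. No paired analysis was possible because there is 1 group. The cause of these shifts was not tested. Depth is unknown.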
